A study of Mus musculus with 7 samples.

Results

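The chromatin and histone modification genes were 64 of the 3997 coding genes that have a row in the deposited array table of wild-type and *Ctcf*-cKO testes. A coding gene was taken when its Gene Ontology biological process terms named chromatin, histone or nucleosome, or when its first symbol was a histone symbol, and genes with a term of meiosis, DNA repair, DNA recombination, spermatid or spermatogenesis were left out unless they had a histone symbol. Zinc finger genes of the Zfp and Zbtb symbols were left out as well, and each symbol was counted once, by its row with the highest signal. Of the 64 genes, 59 were taken through a term alone and 5 had a histone symbol. The terms without the histone symbols took 63 of the 64. RNA came from seminiferous tubules, freed of the tunica albuginea, of 3 wild-type and 4 *Ctcf*-cKO mice, and each mouse had its own Affymetrix MTA 1.0 array; the sample titles name the testis. In the *Ctcf*-cKO mice 1 allele of *Ctcf* was already deleted and the other was floxed (Stra8-iCre-Ctcf f/Δ), and the Stra8-driven Cre is active in spermatogonia and early spermatocytes, so that Sertoli, Leydig and other somatic cells keep 1 floxed, intact allele. The wild-type littermates were of genotype f/f, wt/f or wt/wt without the transgene. The mice were 12 to 15 weeks old and of a C56BL/6J background. The table holds only transcript clusters that the authors selected for a linear fold of 2 and a p-value, with 1 average log2 signal per genotype and 0 columns of values of single mice. Neither the spread among mice nor a test of genotype could therefore be computed, and every difference below is the authors' *Ctcf*-cKO average minus the authors' wild-type average on the log2 scale. A gene absent from the table has no value here. If the array measured it, it missed the cutoff of fold or of p-value, which does not show that its signal was unchanged. *Ctcf* itself has 0 rows.

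In the nucleus DNA is wrapped around octamers of the core histones H2A, H2B, H3 and H4 and closed by linker histone H1. Writers add acetyl, methyl or phosphate groups to histone tails, erasers remove them, readers bind them, and remodelers and chaperones move or exchange histones. During spermiogenesis most histones of the haploid spermatid are acetylated, replaced by testis variants and transition proteins and at last by protamines, which pack the sperm head. CTCF is a zinc finger protein that binds DNA and, with cohesin, anchors chromatin loops. The comparison asks how the signals of the genes of this machinery differ between testes with and without *Ctcf* in their meiotic and haploid germ cells.

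Most of the lower histone genes are near copies of each other, which their promoters show directly. Of the 64 genes, 56 had at least 1 promoter window among the RefSeq windows of GRCm38.p6, each of 300 bases from 250 bases before the start to 50 after it. The windows of 3 short H2A variants from separate places in the genome, *H2al1a* (listed as *Gm14483*, chrX:11299007-11299306, plus strand), *H2al1m* (*1700012L04Rik*, chrX:9283514-9283813, plus strand) and *H2al2a* (*H2afb1*, chr2:17996909-17997208, minus strand), are given 5′ to 3′ on the gene's strand, with the longest run that all *H2al1* and *H2al2* windows share in capitals.
H2al1a: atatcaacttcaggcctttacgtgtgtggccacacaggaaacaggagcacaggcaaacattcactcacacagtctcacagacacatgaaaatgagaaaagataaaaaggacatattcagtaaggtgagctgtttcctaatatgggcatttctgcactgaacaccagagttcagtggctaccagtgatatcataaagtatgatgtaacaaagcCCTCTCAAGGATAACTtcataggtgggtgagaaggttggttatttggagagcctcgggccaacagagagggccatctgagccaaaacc
H2al1m: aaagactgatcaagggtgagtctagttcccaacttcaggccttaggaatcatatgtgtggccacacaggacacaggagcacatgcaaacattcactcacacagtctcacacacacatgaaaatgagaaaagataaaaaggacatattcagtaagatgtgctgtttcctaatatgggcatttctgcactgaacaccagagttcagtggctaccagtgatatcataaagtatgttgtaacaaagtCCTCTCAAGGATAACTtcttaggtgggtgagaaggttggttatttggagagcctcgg
H2al2a: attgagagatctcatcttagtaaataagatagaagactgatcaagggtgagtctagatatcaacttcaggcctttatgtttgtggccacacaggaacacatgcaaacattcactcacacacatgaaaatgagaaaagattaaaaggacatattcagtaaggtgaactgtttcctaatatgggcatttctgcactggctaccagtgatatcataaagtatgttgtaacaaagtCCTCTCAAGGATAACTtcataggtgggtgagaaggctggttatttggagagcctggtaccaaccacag
The run CCTCTCAAGGATAACT, of 16 bases, was found after the values had been seen. By its definition it was in 17 of 17 *H2al1* and *H2al2* windows, and it was in 17 of all 32851 windows. Its first base lay 5 to 102 bases before the start, with a median of 59. Over the 78 pairs of *H2al1* and *H2al2* members the aligned windows were 88.3% to 100% equal, with a median of 96.1%, and 2 pairs were equal at every aligned base. Against the windows of *H1f7*, *H2ap* and *H2bl1*, testis variants of other families, they were 53.1% to 64.9% equal over 39 pairs. The windows of the 2 genes with the largest negative differences, *H2bl1* (*1700024P04Rik*, chr13:98984516-98984815, minus strand) and *H2ap* (*Hypm*, chrX:9846697-9846996, plus strand), are shown for contrast, with CCAAT boxes in capitals.
H2bl1: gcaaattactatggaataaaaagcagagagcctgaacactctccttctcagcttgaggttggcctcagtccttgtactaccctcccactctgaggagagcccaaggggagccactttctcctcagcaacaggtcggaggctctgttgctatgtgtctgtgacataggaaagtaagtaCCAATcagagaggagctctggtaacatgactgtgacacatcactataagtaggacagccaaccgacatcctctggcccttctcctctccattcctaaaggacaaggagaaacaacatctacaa
H2ap: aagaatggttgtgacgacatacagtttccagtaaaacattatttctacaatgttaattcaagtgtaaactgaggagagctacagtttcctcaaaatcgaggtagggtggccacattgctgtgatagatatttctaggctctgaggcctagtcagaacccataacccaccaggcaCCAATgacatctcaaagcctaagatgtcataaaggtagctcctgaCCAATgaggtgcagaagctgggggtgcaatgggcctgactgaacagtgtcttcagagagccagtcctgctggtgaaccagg
The *H2bl1* window has 1 CCAAT box and the *H2ap* window has 2, and these were the only testis histone variants with this motif in the window. The letters CCAAT, on either strand, were in 25.8% of the 31 windows of lower chromatin genes, 31.4% of the 35 windows of higher ones and 37.4% of all windows. The TATA box letters TATAAA were in 3.23%, 2.86% and 13.6% of them and the cAMP response element letters TGACGTCA in 6.45%, 2.86% and 1.79%, which are counts of 1 or 2 windows among the lower and the higher genes. These are matches of letters in a window, and the windows of near copies are not separate observations.

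Of the 64 chromatin genes, 35 were lower in *Ctcf*-cKO (54.7%) and 29 were higher (45.3%). Among all 3997 coding genes with a row, 61.3% were lower and 38.7% were higher. Every row had been selected for its size of change, so only the direction and the size beyond the threshold are left to describe. The median difference of all 7580 rows was -1.145, and after re-centring on this overall median 20 of the 35 lower genes stayed below 0 and 15 were above it. No row differed by less than 1 and most rows were lower, so this median lies among the lower rows and is not that of the array. Re-centring therefore only splits the lower genes at -1.145, and a lower gene above 0 after it was still lower in *Ctcf*-cKO. The counts by direction varied with the role of the genes. The 20 genes of the 2 histone groups, testis variants and histones of the somatic clusters, had 19 lower and 1 higher, but several of them share rows with near copies or, for *Trim17*, with a gene of another kind. Over rows that list 1 symbol alone, the histone groups had 10 of 25 lower genes and 1 of 25 higher genes. Several of these 10 are still *H2al1* or *H2al2* copies, such as *Gm14484* and *H2afb1*, so they are not separate observations either. Of the 44 other genes, 16 were lower (36.4%) and 28 were higher (63.6%). These shares depend on the selection, whose excluded terms had left out 16 further genes with a chromatin term, 13 lower and 3 higher. In RNA of tubules with all their cell types, fewer cells of a type and less RNA per cell cannot be told apart, and this holds for each value below. The roles were assigned from general knowledge of each gene after the values had been seen, and the counts by role are descriptions.

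**Figure D1:**
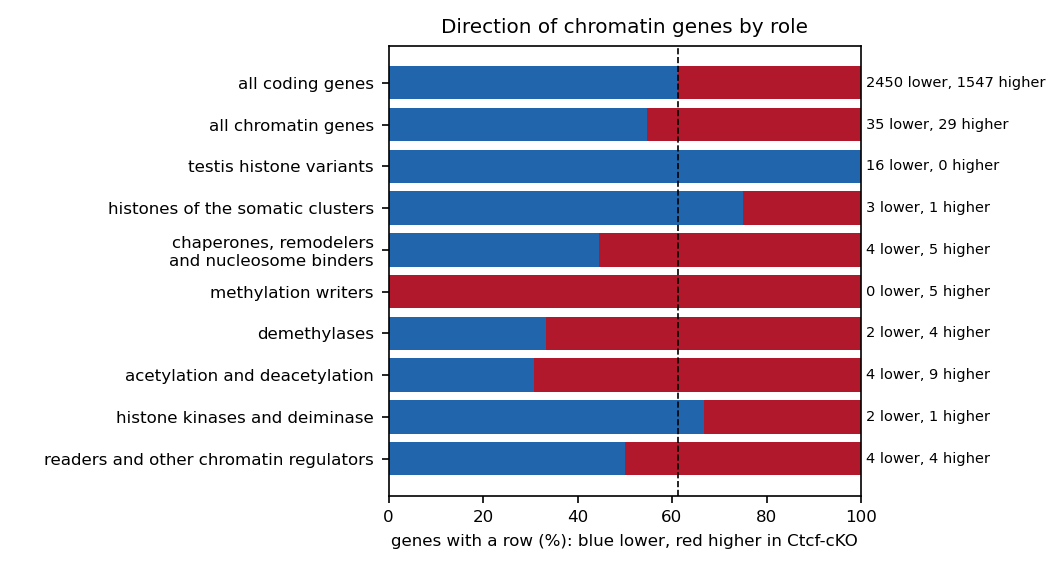
Share of genes with a row that were lower (blue) or higher (red) in Ctcf-cKO, in percent on the horizontal axis, for all coding genes, all chromatin genes and each role, with the counts at the right. The dashed line marks the 61.3% of all coding genes that were lower. The testis histone variants are all on the lower side (16 of 16, of which 7 were lower by less than the median of all rows, -1.145). The methylation writers are all on the higher side (5 of 5).

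The 16 testis histone variants were all lower, with differences from -1.79 to -1.06 and a median of -1.16 (2.23-fold at the median), and 9 stayed below 0 and 7 were above it after re-centring on the overall median. The largest difference was that of *1700024P04Rik*, now *H2bl1*, an H2B-like gene at positions 98984085 to 98984565 of chromosome 13. Its average was 10.37 in wild-type mice and 8.58 in *Ctcf*-cKO mice, a difference of -1.79 (3.46-fold lower). *Hypm*, now *H2ap*, an H2A-like gene of the X chromosome at positions 9846928 to 9847509, averaged 9.68 in wild-type mice and 8.07 in *Ctcf*-cKO mice, a difference of -1.61 (3.05-fold lower). The row of *Hypm* has 16 probes and lists 2 symbols, so whether it reads *H2ap* alone cannot be told from the table. *1700024P04Rik* and *Hypm* were the 2 chromatin genes that were lower by a fold of 3 or more. *H1fnt*, the linker histone variant of spermatids now called *H1f7*, averaged 11.08 and 9.79, a difference of -1.29 (2.45-fold lower; chromosome 15, 98255982 to 98257307). *H2afb1*, which RefSeq names *H2al2a*, a short H2A variant that is loaded on spermatid chromatin with the transition proteins, averaged 11.32 in wild-type mice and 10.09 in *Ctcf*-cKO mice, a difference of -1.23 (chromosome 2, 17996417 to 17996958). Its relative *Gm16501*, now *H2al2b*, on the Y chromosome, averaged 8.57 and 7.32, a difference of -1.25, and its 2 rows at separate Y positions carry the same averages.

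The other 11 variants were copies of *H2al1*, all on the X chromosome, and their differences lay close together, between -1.18 and -1.06. *Gm14475* (*H2al1i*) and *Gm14477* (*H2al1c*) both averaged 11.37 in wild-type mice and 10.19 in *Ctcf*-cKO mice, a difference of -1.18. A second, dimmer row of *Gm14477* averaged 10.77 and 9.7 (-1.07). *Gm14474* (*H2al1b*) averaged 11.13 and 9.96 (-1.17), and *Gm14484* (*H2al1e*) averaged 11.30 and 10.15 (-1.15). *Gm14482* (*H2al1g*) averaged 10.52 and 9.38 (-1.14). The smallest differences of the group were those of *Gm14479* (*H2al1f*), from 10.49 to 9.43, and *Gm14483* (*H2al1a*), from 10.77 to 9.71, both -1.06. The rows used for these 7 copies lie in a tandem cluster at positions 11299257 to 11324976, with 3155 to 6403 bases between successive starts. In the wider gaps lie the second rows of *Gm14477*, from 11308755, and *Gm14482*, from 11321423, which were not used. The second row of *Gm14482* has the same averages as its first. The remaining copies lie elsewhere on the chromosome: *1700012L04Rik* (*H2al1m*) averaged 11.14 and 10.02 (-1.12), *Gm5132* (*H2al1o*) averaged 8.03 and 6.93 (-1.10), *Gm5382* (*H2al1n*) averaged 10.39 and 9.32 (-1.07), and *Gm14501* (*H2al1k*) averaged 10.28 and 9.21 (-1.07). Rows of 6 of the 11 copies list more than 1 symbol, up to 7, and the 11 copies have 10 different pairs of averages. Probes of such rows can read several copies, so the copies are not separate observations and which of them differ cannot be told from the table.

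**Figure D2:**
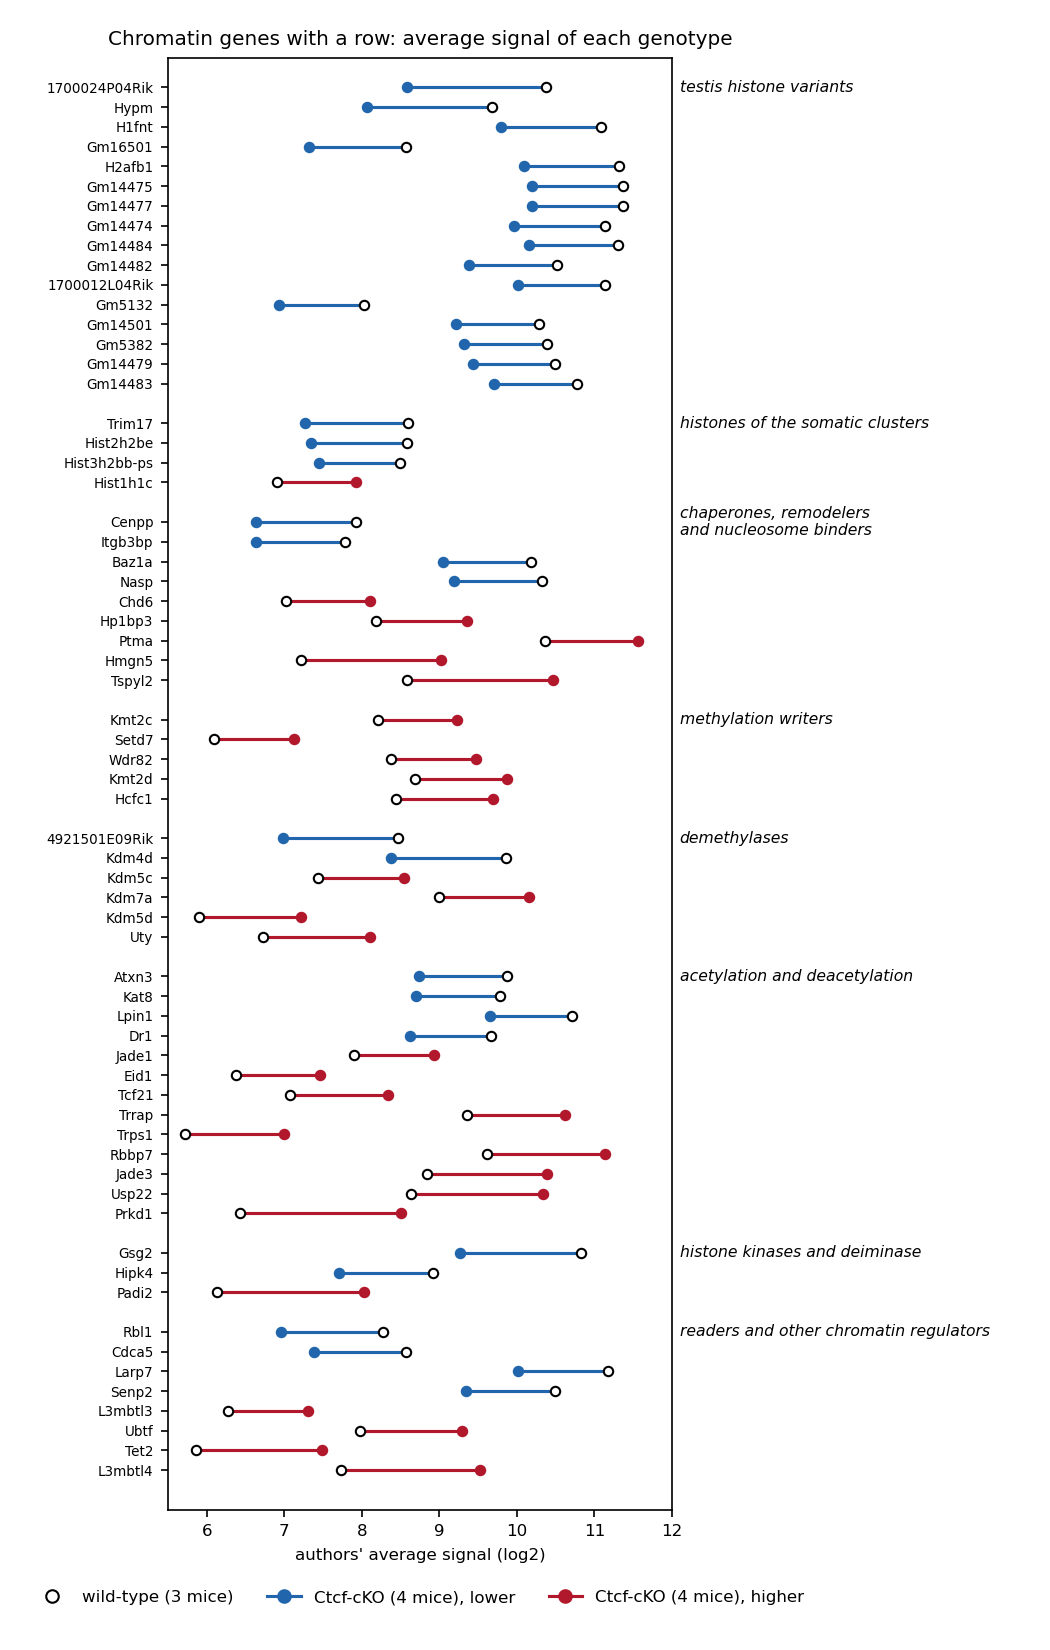
The authors' average signal of each chromatin gene (log2, horizontal axis) in wild-type (open circles, 3 mice) and in Ctcf-cKO (filled circles, 4 mice; blue where lower, red where higher), grouped by role; no spread between mice is known. Lines join the averages of 1 gene, and differences run from -1.79 (1700024P04Rik) to 2.08 (Prkd1); positions of different genes along the axis cannot be compared, because each has its own probes.

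Against the RefSeq annotation, 24 of 103 protein coding histone genes were listed on at least 1 coding row, 23 on lower rows and 1 on a higher row. The *H2al1* family had 13 of its 14 genes listed, all but *H2al1j*, on 13 rows with 11 different sets of values, and the 3 *H2al2* genes were listed on 3 rows with 2 different sets. These rows are shared between copies, so they do not show that each listed gene was lower. *H2ap*, *H2al3* and *H2bl1* each had 1 lower row. *H2al3*, which the table lists as *4930557A04Rik* and which the terms did not take (named after its value had been seen), averaged 8.85 in wild-type mice and 7.31 in *Ctcf*-cKO mice, a difference of -1.54. Of 4 germ cell linker histone genes, *H1f7* and *Hils1*, the linker histone of elongating spermatids that the excluded terms left out, had lower rows, and *H1f6* and *H1f8* had none. The 3 *H2ab* genes, another short H2A family, had no row, and neither had the testis histone genes *H2ac1*, *H2bc1* and *H3f4*. The last 3 were counted among 76 other histone genes, of which 3 had a coding row, 2 lower and 1 higher.

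The histones of the somatic clusters among the chromatin genes were 3 lower, of which 1 was above 0 after re-centring, and 1 higher. *Hist2h2be*, now *H2bc21*, an H2B gene with a polyadenylated transcript, averaged 8.58 in wild-type mice and 7.35 in *Ctcf*-cKO mice, a difference of -1.23 (2.35-fold lower). *Hist3h2bb-ps*, an H2B pseudogene, averaged 8.49 and 7.45, a difference of -1.04, the smallest of the lower genes. The row of *Trim17*, a ubiquitin ligase gene, also lists the histone gene *Hist3h2a*, and it averaged 8.60 and 7.27, a difference of -1.33. It begins 173 bases after the end of *Hist3h2bb-ps* on chromosome 11, and which gene its probes read cannot be told apart. The higher gene was *Hist1h1c*, now *H1f2*, a somatic linker histone, which averaged 6.90 in wild-type mice and 7.93 in *Ctcf*-cKO mice, a difference of 1.03 (2.04-fold higher).

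Among the chaperones, remodelers and nucleosome binders, 4 genes were lower, of which 3 were above 0 after re-centring, and 5 were higher. The lower genes were *Nasp*, a chaperone of H3 and H1 (10.32 in wild-type mice and 9.19 in *Ctcf*-cKO mice, a difference of -1.13), *Baz1a*, a subunit of the ISWI remodelers ACF and CHRAC (10.18 and 9.05, -1.13), and the centromere chromatin genes *Cenpp* (7.92 and 6.64, -1.28) and *Itgb3bp* (7.78 and 6.64, -1.14). The higher genes differed by more at their upper end. *Tspyl2*, a nucleosome assembly protein relative encoded on the X chromosome, averaged 8.58 in wild-type mice and 10.47 in *Ctcf*-cKO mice, a difference of 1.89 (3.71-fold higher). *Hmgn5*, also on the X chromosome, which binds nucleosomes and loosens linker histone binding, averaged 7.22 and 9.02, a difference of 1.80 (3.48-fold higher). *Ptma*, encoding prothymosin alpha, an acidic protein that binds histone H1, averaged 10.36 and 11.56 (1.20). *Hp1bp3*, a linker histone-like protein, averaged 8.18 and 9.36 (1.18), and *Chd6*, a chromodomain remodeler, averaged 7.02 and 8.11 (1.09).

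The 5 genes of histone methylation complexes that the selection took were all higher, by 1.02 to 1.25 with a median of 1.09. Outside the selection, the methyltransferase gene *Kmt2a* was higher (1.21) and the complex subunit *Hcfc2* was lower (-1.12). *Kmt2c* and *Kmt2d* encode the methyltransferases that place a single methyl group on lysine 4 of histone H3 at enhancers. *Kmt2c* averaged 8.21 in wild-type mice and 9.23 in *Ctcf*-cKO mice, a difference of 1.02, the smallest of the higher genes, and *Kmt2d* averaged 8.68 and 9.87, a difference of 1.19. *Setd7*, a further lysine methyltransferase, averaged 6.09 and 7.13 (1.04). The subunits of complexes that methylate this lysine were *Wdr82* (8.38 and 9.47, 1.09) and *Hcfc1* of the X chromosome (8.44 and 9.69, 1.25).

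Of the 6 demethylases, 2 were lower and 4 were higher, and the higher ones included relatives on the X and the Y chromosome. *Kdm4d*, an H3 lysine 9 demethylase gene with high expression in testis, averaged 9.86 in wild-type mice and 8.38 in *Ctcf*-cKO mice, a difference of -1.48 (2.79-fold lower; chromosome 9, 14462548 to 14500482). *4921501E09Rik*, a transcribed pseudogene that RefSeq names *Phf8-ps*, had the same difference, from 8.46 to 6.98. The H3 lysine 4 demethylase genes *Kdm5c* of the X chromosome (7.44 and 8.54, 1.10) and *Kdm5d* of the Y chromosome (5.90 and 7.22, 1.32) were higher in *Ctcf*-cKO. *Uty*, the Y-linked relative of *Kdm6a*, averaged 6.72 in wild-type mice and 8.11 in *Ctcf*-cKO mice, a difference of 1.39 (2.62-fold higher). *Kdm7a*, a demethylase of H3 lysine 9 and lysine 27, averaged 8.99 and 10.15 (1.16).

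Genes of histone acetylation and deacetylation were the largest enzyme group, with 4 lower, all 4 above 0 after re-centring, and 9 higher. *Prkd1*, protein kinase D1, which phosphorylates class II histone deacetylases and drives them from the nucleus, had the largest difference of all 64 genes. It averaged 6.43 in wild-type mice and 8.51 in *Ctcf*-cKO mice, a difference of 2.08 (4.23-fold higher; chromosome 12, 50341231 to 50649223). *Usp22*, the ubiquitin protease of the SAGA acetyltransferase complex, averaged 8.64 and 10.34, a difference of 1.70 (3.25-fold higher). *Trrap*, the scaffold shared by SAGA and the TIP60 complex, averaged 9.35 and 10.62 (1.27). *Jade3* and *Jade1*, subunits of the HBO1 acetyltransferase complex, averaged 8.84 and 10.39 (1.55) and 7.90 and 8.93 (1.03), with *Jade3* on the X chromosome. *Rbbp7*, a histone-binding subunit of deacetylase and Polycomb complexes, also on the X chromosome, averaged 9.61 and 11.13, a difference of 1.52 (2.87-fold higher).

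The transcription factor genes taken through deacetylation terms were *Tcf21* (7.07 and 8.34, 1.27) and *Trps1* (5.72 and 7.0, 1.28), and *Eid1*, an inhibitor of the acetyltransferase p300, averaged 6.38 and 7.46 (1.08). On the lower side, *Kat8*, the acetyltransferase of H4 lysine 16, averaged 9.78 in wild-type mice and 8.70 in *Ctcf*-cKO mice, a difference of -1.08 (2.11-fold lower). *Dr1*, a subunit of the ATAC acetyltransferase complex and a repressor of transcription, averaged 9.67 and 8.62 (-1.05). *Atxn3*, a deubiquitinase that binds histones, averaged 9.87 and 8.74 (-1.13), and *Lpin1*, a phosphatidate phosphatase and transcriptional coregulator, averaged 10.71 and 9.65 (-1.06).

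The histone kinase and deiminase group had 2 lower kinase genes and 1 higher deiminase gene. *Gsg2*, now *Haspin*, which phosphorylates threonine 3 of histone H3, is an intronless gene of the testis; it averaged 10.82 in wild-type mice and 9.26 in *Ctcf*-cKO mice, a difference of -1.56 (2.95-fold lower; chromosome 11, 73135484 to 73138294). *Hipk4*, a kinase of round spermatids, averaged 8.92 and 7.70 (-1.22). *Padi2*, which converts histone arginines to citrulline, averaged 6.13 and 8.03, a difference of 1.90 (3.73-fold higher; chromosome 4, 140906344 to 140952586).

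The readers and other regulators were 4 lower and 4 higher. Lower were *Rbl1*, a pocket protein relative of the retinoblastoma protein (8.27 in wild-type mice and 6.96 in *Ctcf*-cKO mice, a difference of -1.31), *Cdca5*, also called sororin, which keeps cohesin on chromatin (8.57 and 7.38, -1.19), *Larp7*, a protein of the 7SK RNA particle (11.18 and 10.02, -1.16), and *Senp2*, a SUMO protease (10.49 and 9.34, -1.15). Higher were *L3mbtl4* (7.73 and 9.52, 1.79) and *L3mbtl3* (6.27 and 7.31, 1.04), relatives of a Drosophila tumour suppressor with domains that bind methylated histones. *Tet2*, which oxidizes 5-methylcytosine in DNA, averaged 5.86 in wild-type mice and 7.49 in *Ctcf*-cKO mice, a difference of 1.63 (3.10-fold higher). *Ubtf*, which opens the ribosomal RNA genes, averaged 7.98 and 9.29 (1.31).

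The differences of the lower chromatin genes were smaller than those of lower coding genes at large, with a median of -1.16 beside -1.29. The higher chromatin genes had a median of 1.27 beside 1.33. A fold of 3 was passed by 2 lower and 7 higher chromatin genes, the latter being *Tet2*, *Usp22*, *L3mbtl4*, *Hmgn5*, *Tspyl2*, *Padi2* and *Prkd1*. Of all coding genes, 7.98% (319 genes) were lower and 10.3% (413 genes) were higher by this fold. The genes nearest to the selection threshold were *Hist3h2bb-ps* (-1.04) and *Dr1* (-1.05) on the lower side and *Kmt2c* (1.02), *Jade1* (1.03) and *Hist1h1c* (1.03) on the higher side. *Trps1*, *Tet2* and *Kdm5d* were the 3 genes with a wild-type average under 6, and none of the 64 genes was under 6 in both genotypes.

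**Figure D3:**
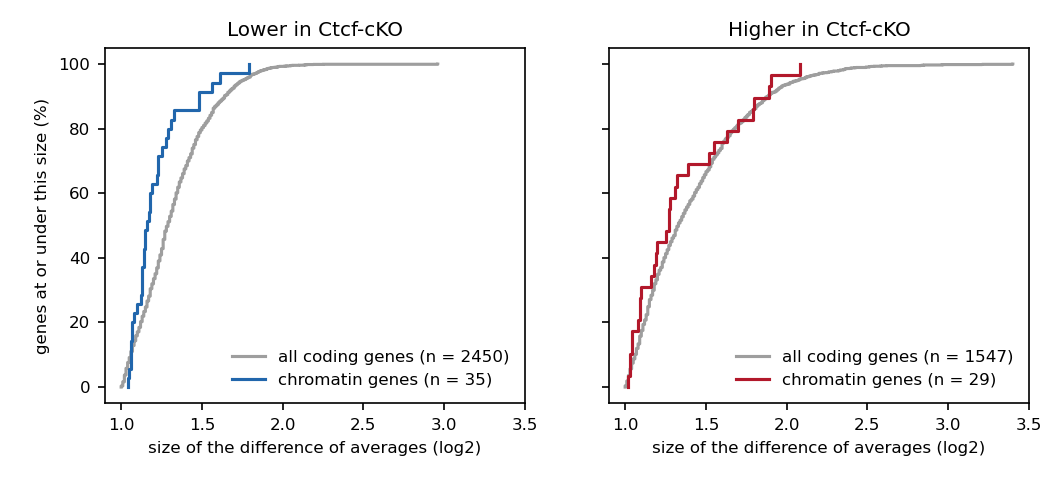
Cumulative share of genes (percent, vertical axis) at or under each absolute difference of the authors' averages (log2, horizontal axis) for lower genes at the left and higher genes at the right, with chromatin genes in colour and all coding genes with a row in grey. The curve of the 35 lower chromatin genes lies mostly to the left of the grey curve (medians -1.16 and -1.29), and the curves of the higher genes lie closer together (1.27 and 1.33).

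The lower and the higher genes also differed in their chromosomes. Of the 35 lower chromatin genes, 12 were on the X chromosome (34.3%), beside 7.63% of the 2450 lower coding genes, and all 12 were testis histone variants; without those variants, 0 of 19 lower genes were on the X chromosome. Of the 29 higher chromatin genes, 6 were on the X chromosome (20.7%), beside 11.5% of the 1547 higher coding genes, and these were *Kdm5c*, *Hcfc1*, *Rbbp7*, *Jade3*, *Hmgn5* and *Tspyl2*. The Y chromosome held 1 lower gene (*Gm16501*) and 2 higher genes (*Kdm5d* and *Uty*), beside 12.2% of the lower and 0.452% of the higher coding genes. The chromosome comparison was made after the values had been seen and has no test.

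Known chromatin families were also counted over lists of 459 genes in 18 families, whether or not the terms took them. A gene was counted only where it was the first symbol of a row. On this count 65 genes had a row, 28 lower and 37 higher, and 394 had none. Re-centred, 15 of the 28 stayed below 0. The share of lower genes among them can be read beside the 61.3% of all coding genes. Cohesin, condensin and CTCF was the family with the most lower genes, 5 lower, of which 1 was above 0 after re-centring, and 1 higher of 26. The condensin gene *Ncapg* averaged 8.22 in wild-type mice and 6.65 in *Ctcf*-cKO mice (-1.57), the meiotic cohesin genes *Smc1b* and *Stag3* differed by -1.44 and -1.35, the condensin gene *Smc2* by -1.25, and the somatic cohesin gene *Smc1a* by 1.07 (6.92 and 7.99). Histone methyltransferases had 0 lower and 4 higher of 49, with *Kmt2a* (7.57 and 8.78, 1.21) beside *Kmt2c*, *Kmt2d* and *Setd7*. Histone demethylases had 1 lower and 4 higher of 26, and acetyltransferases and their complexes had 1 lower and 3 higher of 51.

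Deacetylase corepressor complexes had 1 lower and 4 higher of 30, among them *Sap30* at -1.43 and *Tbl1x* at 1.69. Of 18 deacetylases and sirtuins, only *Hdac6*, a cytoplasmic deacetylase of tubulin, had a row (8.29 and 9.97, 1.68). ATP-dependent remodelers had 3 lower and 3 higher of 61, with *Chd5*, a remodeler of spermatids, at -1.38 and *Smarca1*, an ISWI ATPase, at 1.95. The Polycomb group had 3 lower and 4 higher of 41, among them *Sfmbt2* at -1.17 and *Pcgf6* at -1.07. Heterochromatin and DNA methylation had 2 lower and 2 higher of 27, with *Morc2b* at -1.31, *Uhrf1* at -1.05 and *Atrx* at 1.62. Histone ubiquitination had 1 lower, *Usp44* at -1.56, and 3 higher of 23. Histone kinases and deiminases had 3 lower and 2 higher of 14, with *Bub1* at -1.54 and *Jak2* at 1.56 besides *Haspin*, *Tssk6* and *Padi2*. Of 12 bromodomain readers, the testis reader *Brdt* differed by -1.20 and *Brwd3* by 1.11, and of 10 HMG proteins, *Hmgn5* and *Hmgb3* (1.20) were higher. Of 13 subunits of H3 lysine 4 methyltransferases, *Hcfc2* differed by -1.12, and *Hcfc1* and *Wdr82* were higher. Of 5 protamine and transition protein genes, *Prm3* alone had a row (9.48 and 8.44, -1.04), so that *Prm1*, *Prm2*, *Tnp1* and *Tnp2* have no value here. The paper did not find lower expression of *Prm1* or *Prm2* in these testes. Of 11 linker histones, 2 were lower and 1 was higher. Of 21 core histone variants, *H2afb1* alone was the first symbol of a row, and *Hist3h2a*, listed after *Trim17* on the lower row given above, was not counted.

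**Figure D4:**
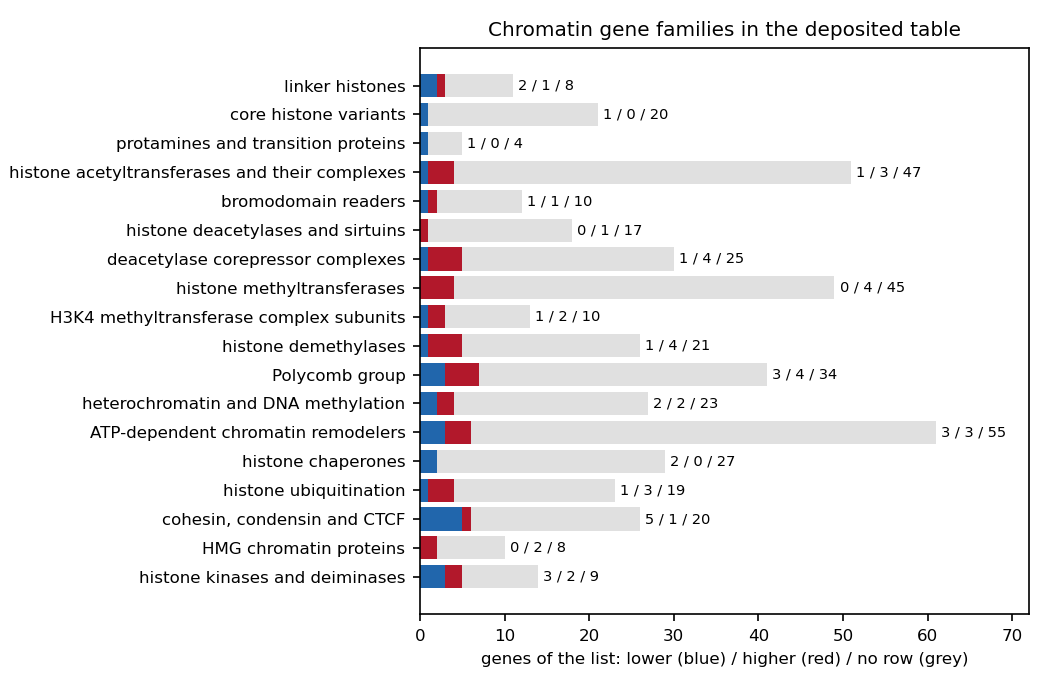
Number of genes of each of 18 chromatin families that were lower (blue), higher (red) or without a row (grey) in the deposited table, with the 3 counts at the end of each bar. Genes were counted by the first symbol of a row, so *Hist3h2a*, listed after *Trim17*, is in grey. In every family the genes without a row outnumber the others. Cohesin, condensin and CTCF has the most lower genes (5 of 26, 1 of them lower by less than the median of all rows, -1.145).

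The terms that the selection excludes had left out 16 further genes with a chromatin term, 13 lower and 3 higher. The lower ones included *Brdt*, *Chd5*, *Hils1*, *Sycp1* and *Tssk6*, and the higher ones included *Ubr2* (1.16) and *Fshr* (2.28). With these 16 genes, 48 of 80 chromatin genes were lower (60%), beside the 61.3% of all coding genes.

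Markers of cell types differed in both directions. Among 36 marker genes of somatic cells (macrophage, endothelial, myoid, Leydig and Sertoli), 23 had a row and all were higher, by 1.06 to 2.97 with a median of 1.59. Of 29 markers of spermatocytes and spermatids, 19 had a row and all were lower, by -1.70 to -1.02 with a median of -1.22. The stages were covered unequally. Rows were present for 8 of 10 primary spermatocyte, 8 of 8 round spermatid and 3 of 11 elongating spermatid markers, with medians of -1.32, -1.235 and -1.03. Of 8 spermatogonia markers *Kit* had a row, with a difference of 2.28. The differences of 34 of the 35 lower chromatin genes (97.1%) lay within the range of these germ cell markers, for example the spermatid genes *Acr* (-1.06), *Acrv1* (-1.18) and *Spaca1* (-1.26), beside 91.6% of all lower coding genes. Of the 29 higher chromatin genes, 24 (82.8%) lay within the range of the somatic markers, for example *Clu* (1.11) and *Sox9* (1.62) of Sertoli cells and *Star* (2.15) of Leydig cells, beside 91.1% of all higher coding genes. Both ranges begin close to the difference for which every row was selected, so these shares set the chromatin genes apart from no other row. The part of cell composition in the differences of the chromatin genes was not tested.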

How the data were processed

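Total RNA of tubules from 3 wild-type mice and 4 *Ctcf*-cKO mice was labelled with the Affymetrix WT Plus protocol and hybridized to MTA 1.0 arrays, 1 per mouse. The submitters' processing notes name Affymetrix Expression Console 1.4.1, RMA, Transcriptome Analysis Console 3.0 and the mm10 genome build. The authors deposited 1 table of 7580 transcript clusters, selected by them for a linear fold of 2 and a p-value, whose values are bi-weight averages of the log2 signal per genotype, written with decimal commas, beside the number of probes. Its columns of fold changes, p-values and false discovery rates are the authors' own comparison and were not used. The averages are rounded to 2 decimals, and differences and linear folds were computed from them with Python 3.11.15, pandas 2.3.3, numpy 2.4.6, scipy 1.17.1 and matplotlib 3.10.9. Because the table gives 0 columns of single mice, a limma model could not be used, and no test, standard deviation or paired fit was made; the number of arrays limits the precision.

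Coding rows are those of the table's classes Coding and Complex; 67 rows gave 64 genes, each by its row with the highest signal. The members and gene lists were chosen with earlier results of these data known, and roles, motifs and printed sequences after the values had been seen. Named genes were the histone symbols, the 10 lower and 10 higher genes with the largest differences, up to 4 list genes per direction, the genes nearest the threshold, *Ctcf* and the cell type markers; the other chromatin genes were added so that all 64 are given. Some genes of the lists are not reported here. All 64 members were found in RefSeq (GRCm38.p6) by Entrez identifier, and 21 carry another symbol there. Promoter windows are from RefSeq, searched on both strands, and aligned end to end with free end gaps. The counting was tested on simulated data. Alternatives were a fold of 3, a signal of 6, the row class, the symbols, terms and exclusions of the selection, repeated rows and re-centring.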

Additional observations from a re-analysis of the deposited data

Results flagged for a closer look

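Some rows outside the coding classes, which no comparison above uses, also differed between the genotypes at the chromatin genes. They have no control level and no test. On the same strand, non-coding rows within *Prkd1* (5 rows, 1.15 to 2.16) had a median difference of 1.76, those within *Trps1* (8 rows, 1.21 to 1.82) a median of 1.62 and those within *Cenpp* (2 rows) a median of -1.13. Of the genes with 1 such row, the row within *Usp22* differed by 1.18 and that within *Uty* by 1.17. At *Kdm4d* the row lay on the opposite strand and differed by -1.42. Each had the direction of its coding gene. The histone gene *Hist1h4b* has only a row of the non-coding class, which averaged 5.77 in wild-type mice and 4.62 in *Ctcf*-cKO mice, a difference of -1.15.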

How the results depend on the processing

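No paired analysis was possible because the deposited table holds 1 average per genotype and no values of single mice, which also left no mouse to leave out. The count of 35 lower and 29 higher genes (54.7% lower) kept within 1.5 times under a signal of at least 6, every symbol of a row, the row with the largest difference, Gene Ontology terms alone, no exclusion of terms and repeated rows counted once. At a fold of 3, 2 genes were lower and 7 higher (22.2% lower), and of the list genes 0 were lower and 9 higher. With class Coding alone 7 genes were higher (77.4% lower). Without the term nucleosome, which takes most testis histone variants, 18 were lower (39.1%). Re-centred on the median of all rows (-1.145), 20 were lower and 44 higher (31.2% lower), and 15 of the list genes were lower; the rows had been selected for change, so this median is not that of the array. Chosen after the data had been seen, leaving out the testis histone variants gave 19 lower genes (39.6%), and leaving out rows of more than 1 symbol gave 25 lower and 25 higher. Of the 36 counts by family, 36 kept within 1.5 times at a signal of 6, 23 when re-centred and 8 at a fold of 3. The table gives no detection call, so the 3 genes whose wild-type average was under 6 could not be checked against background: *Trps1*, *Tet2* and *Kdm5d*.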
